A study of Mus musculus with 26 samples.

Results

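The 10 genes *Sox9*, *Wt1*, *Gata1*, *Gata4*, *Fshr*, *Dhh*, *Amh*, *Inha*, *Inhbb* and *Clu*, used as genes of the Sertoli cell, were followed by their symbols through the count tables of mouse testis, initial segment (IS) and caput epididymis. They are 10 of the 23337 genes counted, and each symbol was found once in both tables. The RNA came from ArKI mice, a knock-in line, and from wild-type (WT) controls. All groups were males of the strain C57Bl/6N; 129 hybrid, 3 months old, derived through targeted embryonic stem cells, so that every cell of an ArKI male carries the knock-in allele and neither a Cre nor a drug is involved. The groups were WT testis (n = 3), ArKI testis (n = 3), WT IS (n = 5), ArKI IS (n = 5), WT caput (n = 5) and ArKI caput (n = 5).

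Sertoli cells are the somatic cells of the seminiferous tubule that nurse the germ cells and close the blood-testis barrier. They respond to follicle-stimulating hormone through a receptor in their own membrane. In return they secrete hormones of the TGF-beta family and hedgehog ligand, while *Sox9*, *Wt1* and the *Gata* genes encode the transcription factors that set and keep their identity. The epididymis holds no Sertoli cells, but several of these genes are also used by other epithelia, so the IS and caput served as the tissue contrast.

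All 10 are protein-coding genes in the GENCODE annotation of the mouse genome build mm10 (GRCm38), and most lie on a chromosome of their own. The *Inha* gene is at chr1:75507077-75510366 and *Inhbb* at chr1:119415465-119422248 on the same chromosome, and *Clu* at chr14:65968483-65981547 shares chromosome 14 with *Gata4* at chr14:63198922-63271692. The others are *Wt1* at chr2:105126529-105173616, *Amh* at chr10:80805243-80807648, *Sox9* at chr11:112782224-112787760, *Dhh* at chr15:98891152-98898540, *Fshr* at chr17:88984952-89200675 and *Gata1* at chrX:7959260-7978071. The exons of *Dhh* overlap those of *Rhebl1* on the same strand over 546 bp and those of the antisense gene *Gm49442* over 1107 bp, and the strand setting of the counting is not given in the sources used here, so the *Dhh* counts are uncertain to that extent.

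A promoter window in the RefSeq table (build GRCm38.p6) was found for 5 of the 10 genes, *Dhh*, *Fshr*, *Gata1*, *Inha* and *Inhbb*. The 250 bases before the start are shown for *Fshr*, a member without a count in any WT epididymal sample, and for *Inhbb*, the member with the smallest p-value in the testis and a higher level in the IS than in the testis. Both are read 5′ to 3′ on the minus strand, *Fshr* from chr17:89200676-89200925 and *Inhbb* from chr1:119422249-119422498, and the capitals mark an E-box.
Fshr: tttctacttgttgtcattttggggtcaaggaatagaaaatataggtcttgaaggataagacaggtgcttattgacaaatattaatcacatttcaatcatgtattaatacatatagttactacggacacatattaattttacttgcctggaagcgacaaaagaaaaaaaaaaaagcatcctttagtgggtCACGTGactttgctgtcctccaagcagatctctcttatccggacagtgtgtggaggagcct
Inhbb: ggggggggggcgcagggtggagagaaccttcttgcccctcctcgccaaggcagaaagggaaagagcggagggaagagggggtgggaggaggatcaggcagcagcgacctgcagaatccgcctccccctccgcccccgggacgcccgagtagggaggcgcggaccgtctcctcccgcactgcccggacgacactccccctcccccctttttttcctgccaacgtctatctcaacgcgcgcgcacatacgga
The *Fshr* stretch was AT-rich with 36.8% G and C, and the *Inhbb* stretch GC-rich with 68.0%, on either side of the median of 52.4% over all 32851 windows. The E-box CACGTG of *Fshr* began at position -61 from the start and was the only match among the 5 windows, each read over 250 bases before and 50 after the start and on both strands. The E-box was held by 7.15% of all windows. The other letters searched were AGATAA or TGATAA for GATA factors (18.6% of all windows), AACAAT for SOX factors (10.7%) and AAGGTCA for SF-1 (4.72%), and these letters are not in the 5 windows.

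The total count per sample was 14077013 to 21376604 in the testis, 5829074 to 9770625 in the IS and 4125768 to 11913469 in the caput, with the shallowest library ArKI caput replicate 2. Values are given as CPM, the counts of a gene relative to the total of its library, scaled by TMM within each tissue, unless a sentence says otherwise. The 8 epididymal epithelium markers summed to 15.1 to 18.1 CPM in the WT testis and 11.5 to 15.5 CPM in the ArKI testis, against 35033 to 59521 CPM in WT epididymal samples, and 1 of the 8 was at no more than 3 counts in each testis library.

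All 10 genes were read in every testis sample. Per kilobase of exon, the WT testis level was highest for *Clu*, which encodes the secreted chaperone clusterin, at 529 ± 10.1 CPM per kb (SD, n = 3 for all values of this paragraph), followed by the inhibin alpha subunit gene *Inha* at 52.0 ± 2.16. *Wt1* stood at 16.2 ± 1.42, *Gata4* at 8.50 ± 0.587 and *Inhbb*, which encodes the beta B subunit of inhibin and activin, at 7.84 ± 0.328 CPM per kb. *Gata1* was at 6.42 ± 0.234, *Sox9* at 4.79 ± 0.880, and the ligand gene *Dhh* at 3.75 ± 0.384 CPM per kb. The lowest levels per kb were those of *Amh*, at 1.28 ± 0.0560, and *Fshr*, at 0.980 ± 0.173. The samples of *Gata4* and *Inhbb* overlapped, as did those of *Sox9* and *Dhh*, and all other neighbours in this order were apart in the WT samples. In the ArKI testis *Inhbb*, at 6.58 ± 0.227 CPM per kb, overlapped *Gata1*, at 6.48 ± 0.0118, and no longer *Gata4*, at 8.16 ± 0.518.

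Whether the knock-in changes these transcripts in the testis was asked by comparing ArKI with WT testis. None of the 10 genes changed by the study's thresholds there (FDR below 0.2 and a fold change above 2), which 0.833% of the 15838 genes tested passed, nor at an adjusted p below 0.05 without a fold limit, which 1.96% passed. At an unadjusted p below 0.05 there was 1, *Inhbb*, where 2067 of the 15838 genes tested were below that limit in edgeR. The same counts of 0 and 1 members came from edgeR, DESeq2 and limma-voom. The median log2 fold change of the 10 genes was -0.034 beside -0.0023 over all genes tested, with 4 values above 0 and 6 below. In a bulk sample fewer cells of a type and less RNA per cell cannot be told apart.

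Among the transcription factors, *Sox9*, the factor that starts and maintains Sertoli cell fate, was at 23.5, 19.6 and 16.3 CPM in WT and 18.6, 18.2 and 19.6 CPM in ArKI testis. The ArKI samples lay inside the WT range, and the log2 fold change was -0.08 ± 0.11 (SE), with a 95% interval from -0.31 to 0.15. *Wt1*, the Wilms tumour factor, was at 54.7, 49.6 and 46.0 CPM in WT and 51.3, 48.6 and 53.6 CPM in ArKI, a log2 fold change of 0.03 with an interval from -0.13 to 0.19. *Gata1*, the X-linked GATA factor known from red blood cells and expressed in adult Sertoli cells, varied least, with 12.4, 12.5 and 11.7 CPM in WT and 12.3 CPM in each ArKI sample. Its interval ran from -0.20 to 0.22 on the log2 scale. *Gata4*, a GATA factor of both Sertoli and Leydig cells, was at 30.1, 26.6 and 30.0 CPM in WT and 29.7, 26.3 and 27.1 CPM in ArKI, with an interval from -0.24 to 0.12. The log2 ratio of *Gata1* to *Gata4* counts, which does not depend on scaling, was -1.24 ± 0.139 in WT and -1.17 ± 0.0884 in ArKI (SD, n = 3 each; exact permutation test, two-sided, p = 0.5, adjusted p = 0.5 over 4 ratio tests, smallest possible p = 0.1). Its difference of 0.073 ran from 0.014 to 0.15 on leaving out single replicates.

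The hormone receptor and the secreted signals were as close between the genotypes, though less precisely measured where counts were few. *Fshr*, the receptor for follicle-stimulating hormone, had 44, 34 and 26 counts in the WT testis samples and 40, 34 and 44 in the ArKI samples. The log2 fold change of *Fshr* was -0.09 ± 0.23 (SE), and the interval from -0.57 to 0.39 left room for changes in either direction that this depth could not show. *Amh*, the anti-Müllerian hormone of the immature Sertoli cell, had 34, 31 and 30 counts in WT and 46, 37 and 37 in ArKI, and its interval from -0.41 to 0.53 was as wide. *Dhh*, the hedgehog ligand that Sertoli cells send to Leydig and peritubular cells, was at 17.3, 16.4 and 14.1 CPM in WT and 16.9, 15.4 and 14.7 CPM in ArKI, with an interval from -0.24 to 0.19. *Clu* was at 954, 978 and 941 CPM in WT and 1039, 910 and 929 CPM in ArKI. Its log2 fold change of 0.0017 ± 0.061 (SE), with an interval from -0.13 to 0.13, was the smallest of the 10.

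The inhibin subunits differed from each other in the testis. *Inha* was at 78.4, 78.7 and 73.1 CPM in WT and 85.0, 70.4 and 68.7 CPM in ArKI, so that the ArKI samples fell on both sides of the WT samples. *Inhbb* was at 35.0, 32.5 and 32.6 CPM in WT and 27.4, 27.4 and 29.1 CPM in ArKI, with every ArKI sample below every WT sample. It was the only member whose groups did not overlap, 1 of 10, while 17.8% of all genes tested had such groups. The log2 fold change of *Inhbb* was -0.26 ± 0.081 (SE), a fold of 1.19, with an interval from -0.42 to -0.088, an unadjusted p of 0.0046 and an adjusted p of 0.13 in edgeR's quasi-likelihood test (0.12 to 0.77 over 15 alternatives). It thus passed the study's FDR limit in the testis but neither its fold limit nor an adjusted p of 0.05. The log2 ratio of *Inha* to *Inhbb* counts was 1.20 ± 0.0633 in WT and 1.41 ± 0.201 in ArKI testis (SD, n = 3 each), and the difference of 0.21 did not pass (exact permutation test, two-sided, p = 0.2, adjusted p = 0.27, smallest possible p = 0.1). Leaving out single replicates, this difference ran from 0.099 to 0.29.

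**Figure D1:**
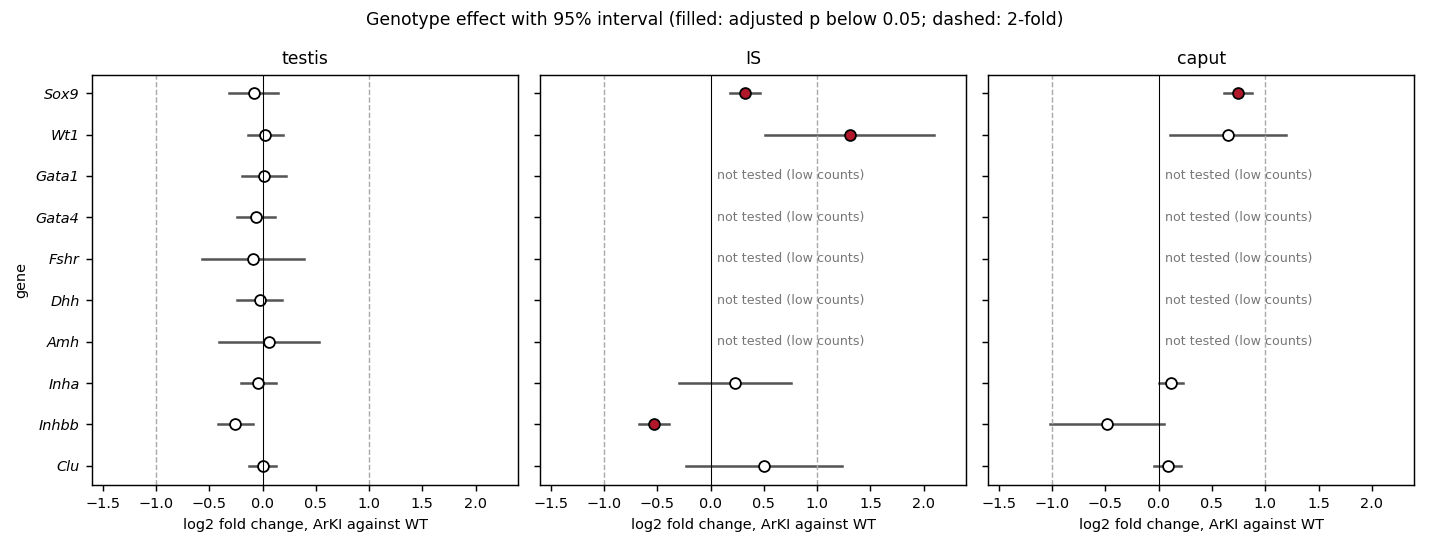
Log2 fold change of ArKI against WT (x axis) for each of the 10 genes (y axis) in testis, IS and caput, with bars for the 95% interval of edgeR's fit. In the testis every point lies between the dashed 2-fold lines with no filled point, whereas *Sox9* is filled in IS and caput, and *Wt1* and *Inhbb* in the IS.

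The pathways around these genes were read from lists, and no gene of the lists below passed the study's thresholds in the testis in edgeR or DESeq2, while limma-voom called 1, *Fos* of the FSH list (1.60 ± 0.83 in edgeR, log2, SE, adjusted p = 0.50). Of 14 tested TGF-beta family partners (the activin subunits, follistatins, receptors and SMAD proteins that act with inhibin and AMH) none passed an adjusted p of 0.05, with 1 at an unadjusted p below 0.05. The most abundant of them, the AMH receptor gene *Amhr2*, was at 0.04 on the log2 scale (adjusted p = 0.87). Of 12 hedgehog pathway genes none passed either, with 1 at an unadjusted p below 0.05, and *Sufu*, the inhibitor of the GLI factors, was at -0.04. DESeq2 and limma-voom gave the same counts of 0 and 1 for both lists. Of 10 genes of FSH and cyclic AMP signalling, *Gnas*, the stimulatory G protein subunit, rose by 0.29 ± 0.066 (log2, SE, adjusted p = 0.017) and the cyclic AMP phosphodiesterase gene *Pde4d* fell by 0.67 ± 0.14 (adjusted p = 0.011). Beside these, 1.96% of all genes tested in the testis were called. The fall of *Pde4d* was not particular to the testis, since it also fell in the IS and caput, by 0.71 ± 0.12 and 0.93 ± 0.14 (adjusted p = 0.00011 and 0.00010). *Gnas* did not pass in either (adjusted p = 0.94 and 0.34). *Prkar1a*, a regulatory subunit of protein kinase A, was at -0.0019. The call of *Gnas* was lost without ArKI testis replicate 1 or WT testis replicate 3 (adjusted p = 0.096 and 0.074), and that of *Pde4d* without ArKI replicate 2, WT replicate 1 or WT replicate 3 (adjusted p = 0.051, 0.065 and 0.077).

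Of 18 gonadal transcription factors, only the GATA cofactor gene *Zfpm2* passed, and it fell by 0.44 ± 0.10 (log2, SE, adjusted p = 0.023). At an unadjusted p below 0.05 there were 5 of the 18 in edgeR, 5 in limma-voom and 2 in DESeq2. The call of *Zfpm2* was not made by DESeq2 (adjusted p = 0.054), nor without ArKI testis replicate 1 or 2 or WT testis replicate 3 (adjusted p = 0.075, 0.12 and 0.18). Its relative *Zfpm1* was at -0.23 (adjusted p = 0.20), and at -0.33 without ArKI testis replicate 1 (adjusted p = 0.035). Of 34 other genes known from Sertoli cells, 3 rose and none fell, where 1.96% of all genes tested were called. These were *Spinlw1*, which encodes the protease inhibitor eppin, by 0.45 ± 0.11, the serpin gene *Serpina5* by 0.44 ± 0.073, and *Vim*, the intermediate filament vimentin, by 0.30 ± 0.074 (log2, SE, adjusted p = 0.030, 0.00092 and 0.033). *Vim* also rose in the IS and caput, which hold no Sertoli cells, by 0.53 and 0.87 (adjusted p = 1.0e-05 and 0.0060). *Spinlw1* did not pass there (adjusted p = 0.77 and 0.41). The call of *Serpina5* held without any single replicate, whereas those of *Spinlw1* and *Vim* were lost without ArKI replicate 1 (adjusted p = 0.17 and 0.17), without ArKI replicate 3 (0.072 and 0.051) and without WT replicate 3 (0.25 and 0.17), that of *Spinlw1* also without WT replicate 1 (0.080) and that of *Vim* without WT replicate 2 (0.079). *Ctsl*, the protease cathepsin L and the most abundant of this list in the WT testis, was at 0.19 (adjusted p = 0.14). At an unadjusted p below 0.05 there were 14 of the 34 in edgeR, 12 in DESeq2 and 13 in limma-voom, beside 2067 of all 15838 genes in edgeR. Among the 14, *Corin* and *Tjp1*, both named after their values were seen, were below WT in every ArKI sample. The median over the 34 genes was 0.066, with 24 values above 0, and their summed level was 2218 to 2328 CPM in WT and 2441 to 2642 CPM in ArKI, with no overlap. Such a sum is carried by the most abundant genes of the list, and 17.8% of all genes tested had groups without overlap. DESeq2 and limma-voom also called *Aldh1a1*, a retinaldehyde dehydrogenase named after its values were seen, which was above WT in every ArKI sample (0.67 ± 0.15, log2, SE, adjusted p = 0.11 in edgeR). In limma-voom *Vim* missed the limit (adjusted p = 0.057), and in the fit of 26 samples *Vim*, *Spinlw1* and *Zfpm2* did (adjusted p = 0.41, 0.29 and 0.19).

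**Figure D2:**
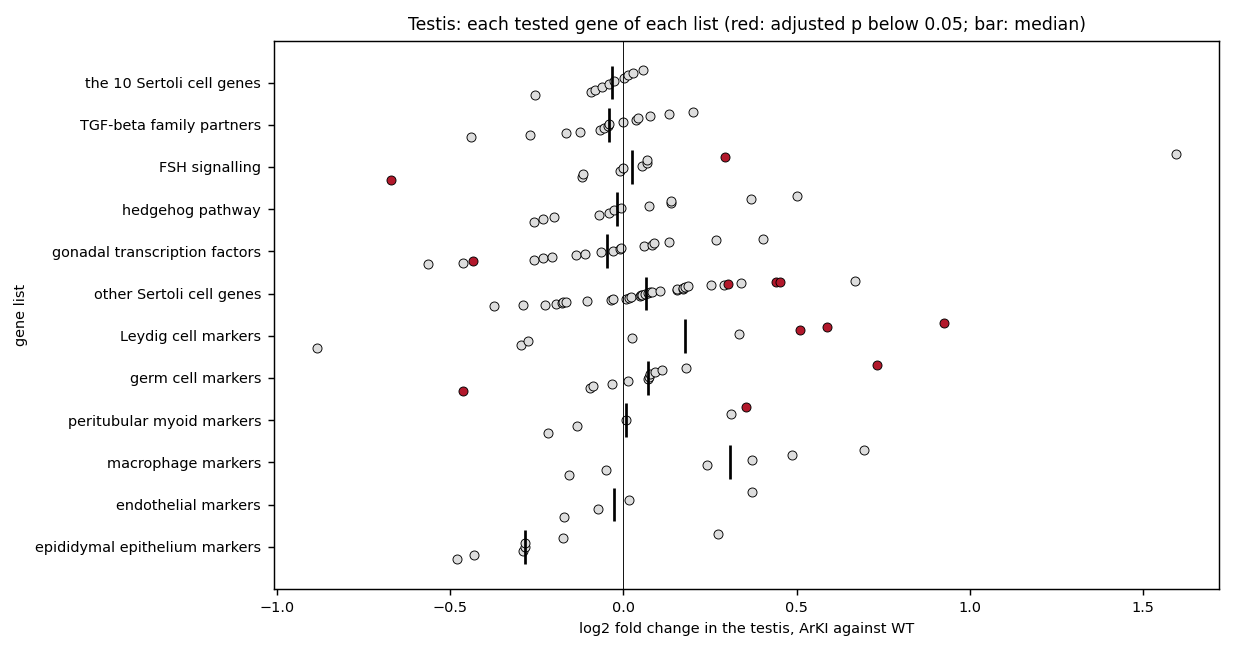
Log2 fold change in the testis, ArKI against WT (x axis), of each tested gene of each list (y axis), with a bar at the list's median and red points at an adjusted p below 0.05. No red point stands in the row of the 10 Sertoli cell genes, whose values run from -0.26 to 0.06, while *Cyp11a1* is the red point farthest to the right, at 0.92 among the Leydig cell markers.

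Markers of the other testis cells were read beside these values. Of all genes tested in the testis, 1.96% were called at an adjusted p below 0.05 and 17.8% had groups without overlap. At an unadjusted p below 0.05 there were 2067 of 15838 in edgeR. Of 8 Leydig cell markers 3 rose, the steroidogenic enzyme genes *Cyp11a1* by 0.92 ± 0.083, *Cyp17a1* by 0.59 ± 0.075 and *Hsd17b3* by 0.51 ± 0.090 (log2, SE, adjusted p = 1.1e-06, 4.4e-05 and 0.0017), and the summed level of the list was 635 to 836 CPM in WT and 958 to 1035 CPM in ArKI. The steroid dehydrogenase gene *Hsd3b1* went the other way, at 65.0, 73.8 and 38.3 CPM in WT and 33.9, 32.0 and 30.1 CPM in ArKI, with no overlap and a log2 fold change of -0.89 ± 0.27 (SE, adjusted p = 0.29), which limma-voom called. Of 12 germ cell markers the spermatogonial gene *Zbtb16* rose by 0.73 and *Kit* fell by 0.46 (adjusted p = 0.0083 and 0.0049), *Prm2*, a protamine of late spermatids, was at 0.11, and the sums overlapped at 10133 to 12196 CPM in WT and 11065 to 12883 CPM in ArKI. The call of *Zbtb16* was lost without ArKI replicate 2 (adjusted p = 0.11) and that of *Kit* without WT replicate 3 (adjusted p = 0.066). The rise of *Zbtb16* was not particular to the testis, since it also rose in the IS and caput, by 1.57 and 2.04 (adjusted p = 3.7e-08 and 3.9e-10). *Kit* fell in the caput as well, by 0.24 (adjusted p = 0.013), and did not pass in the IS (adjusted p = 0.72). Of 5 peritubular myoid markers *Acta2*, smooth muscle actin, rose by 0.35 (adjusted p = 0.023), a call lost without ArKI replicate 1, WT replicate 1 or WT replicate 3 (adjusted p = 0.13, 0.056 and 0.13) and in the fit of 26 samples (0.63), with sums of 107 to 109 and 108 to 128 CPM. *Myh11*, smooth muscle myosin, was lower in every ArKI sample (-0.22, adjusted p = 0.21), and the list's median was 0.0066. None of 6 macrophage markers, 4 endothelial markers and 7 tested epididymal markers passed in edgeR, DESeq2 or limma-voom, with 3, 1 and 1 at an unadjusted p below 0.05 in edgeR. The macrophage list had a median of 0.31 and sums of 65.5 to 68.2 CPM in WT and 68.4 to 71.5 CPM in ArKI, with *Cd14*, *Cd68* and *Csf1r* at 0.70, 0.49 and 0.24 (adjusted p = 0.26, 0.38 and 0.32). *Hsd3b1*, *Myh11*, *Fos* and these 3 were named after their values were seen. The most abundant macrophage marker, *Mrc1*, was at -0.05, the endothelial marker *Cdh5* at -0.07 and the epididymal marker *Rnase10* at -0.29. The part of these cells in the values of the 10 genes was not tested.

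Where else the 10 genes are expressed was asked by comparing WT testis with WT IS and WT caput, in a single fit of the 13 WT samples. The testis libraries were sequenced in batch 1 and the epididymal libraries in batch 2, so tissue and batch cannot be told apart. *Gata1*, *Gata4*, *Fshr*, *Dhh* and *Amh* passed the filter on low counts only through the testis, where they had to be higher, so they are described by their counts below and left out of the tally. Of the other 5, *Sox9*, *Wt1*, *Inha*, *Inhbb* and *Clu*, 4 differed from the IS and 3 from the caput at an adjusted p below 0.05 with a fold change above 2, where 69.8% and 69.6% of all 16402 genes tested did. The testis exceeded the IS for 2 of them (38.5% of all genes) and fell short of it for 2 (31.2%), and it exceeded the caput for 1 (38.1%) and fell short of it for 2 (31.5%). The median log2 difference over all genes was 0.19 and 0.16 on the TMM scale and -0.29 and -0.34 with upper quartile factors, where 5455 and 5400 genes were higher and 6289 and 6426 lower in the testis, against 6320 and 6252 higher and 5122 and 5163 lower with TMM.

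Of the 10 genes, 3 were read almost only in the testis. *Gata4* had no count in any WT epididymal sample, *Fshr* had none either, and *Gata1* had a single count in 1 WT IS and 1 WT caput sample. Set against 3 counts per library, the WT testis level was at least 79.7-fold higher than in the IS and 85.9-fold higher than in the caput for *Gata4*, at least 33.7-fold and 36.3-fold for *Gata1*, and at least 6.39-fold and 6.88-fold for *Fshr*. The smaller bound of *Fshr* goes with its low testis level of 2.30 CPM by library size, not with any epididymal count. *Dhh* had 0 to 2 counts per WT caput sample, at least 47.4-fold below the testis, and 2 to 7 counts per WT IS sample, where the WT testis samples had 198 to 288. *Amh* had 0 to 4 counts in the WT IS and 2 to 7 in the WT caput samples, where the WT testis samples had 30 to 34.

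The other members were also epididymal transcripts. *Wt1* was at 59.3 ± 5.14 CPM in the WT testis, 0.747 ± 0.462 CPM in the IS and 1.48 ± 0.595 CPM in the caput (SD, n = 3, 5 and 5, all samples scaled together, as for the next values). *Sox9* had the reverse order, 23.4 ± 4.27 CPM in the testis, 52.2 ± 3.68 CPM in the caput and 126 ± 8.02 CPM in the IS, and was lower in the testis by 2.32 ± 0.090 against the IS and by 1.06 ± 0.092 against the caput (log2, SE, adjusted p = 1.3e-16 and 3.0e-10). The difference from the caput stood near the 2-fold limit and fell below it in 4 alternatives, to as little as -0.94 without WT testis replicate 3. *Inhbb* was also highest in the IS, at 222 ± 12.3 CPM, with 39.5 ± 1.47 CPM in the testis and 23.2 ± 7.41 CPM in the caput. *Inha* was at 90.8 ± 4.44 CPM in the testis and 60.2 ± 3.96 CPM in the caput but only 7.01 ± 1.55 CPM in the IS. The caput difference was 0.68 for *Inha* and 0.86 for *Inhbb* (log2), under 2-fold. With upper quartile factors these were 0.18 and 0.36 (adjusted p = 0.035 and 0.090), by library size 0.29 and 0.47, and in the ArKI samples *Inhbb* was past 2-fold, at 1.04. Per kb, *Inhbb* stood above *Inha* in the WT IS, at 55.1 ± 3.20 against 5.03 ± 1.11 CPM per kb, and below it in the WT caput, at 5.75 ± 1.84 against 43.0 ± 2.87 CPM per kb (SD, n = 5 each, scaled within the tissue).

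*Clu* was the most abundant member per kb in every tissue. It was at 14654 ± 1107 CPM per kb in the WT caput, 546 ± 152 in the WT IS and 626 ± 19.1 in the WT testis, with all samples scaled together. The testis was lower than the caput by 4.46 ± 0.22 on the log2 scale, and its difference of 0.29 from the IS did not pass (adjusted p = 0.13), while without WT IS replicate 1 it was 0.42 (adjusted p = 0.00012), still under 2-fold. That difference was -0.12 by library size alone and -0.19 with upper quartile factors, where the medians of all genes were -0.22 and -0.29.

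**Figure D3:**
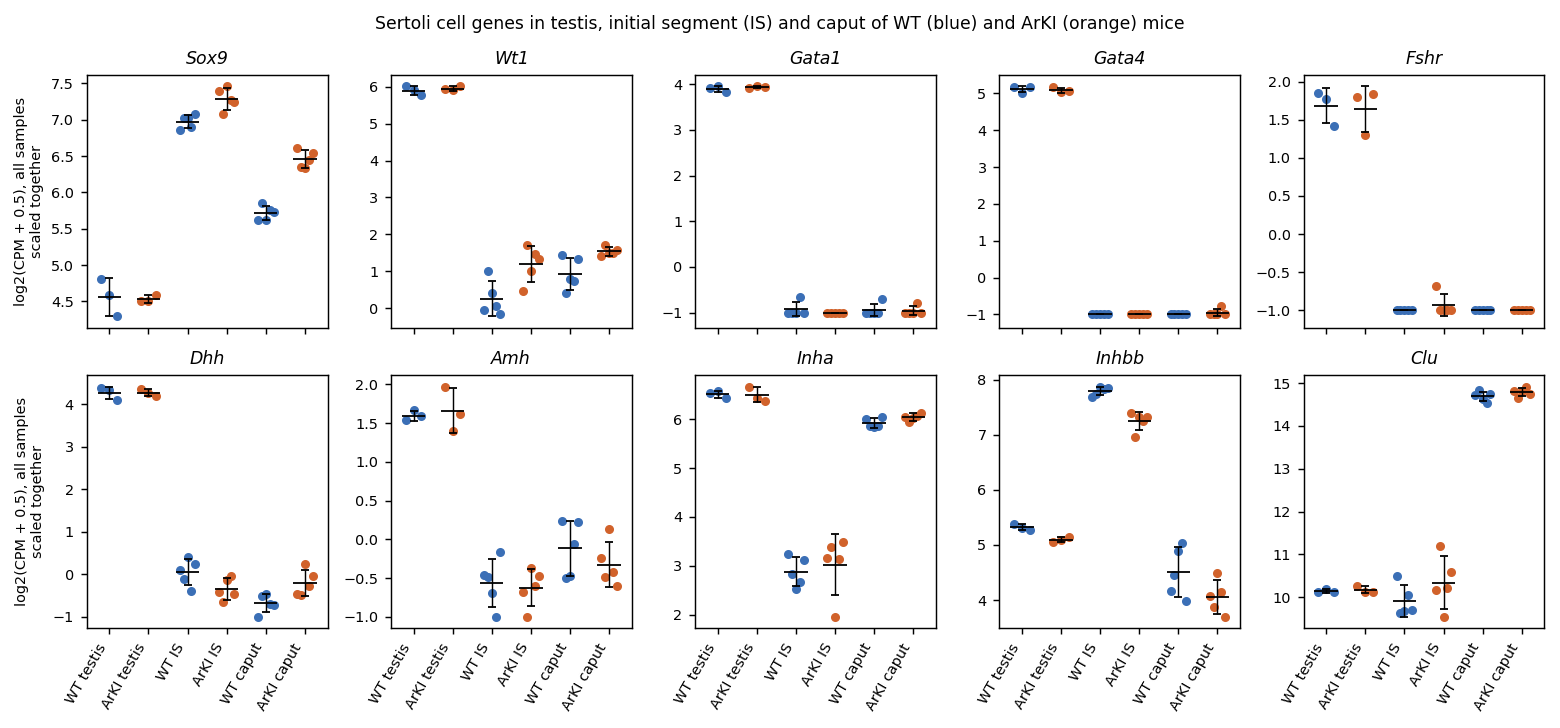
Level of each of the 10 genes as log2(CPM + 0.5), all samples scaled together (y axis), in the 6 groups (x axis), with a point per sample, a line at the mean and a bar for the SD (n = 3 in testis groups, 5 in the others); each panel has its own y axis. *Gata1*, *Gata4* and *Fshr* sit near -1, the value of 0 CPM, in IS and caput, while *Sox9* and *Inhbb* are highest in the IS and *Clu* in the caput.

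The same genotype contrast was then made in the epididymis, where 5 of the 10 genes passed the filter on low counts, *Sox9*, *Wt1*, *Inha*, *Inhbb* and *Clu*. None of these 5 passed the study's thresholds there (FDR below 0.01 and a fold change above 2), which 4.04% of 13434 genes did in the IS and 4.98% of 13726 in the caput, and DESeq2 and limma-voom gave 0 as well, while *Wt1* passed in the IS in the fit of 26 samples, with the replicate block, and without ArKI IS replicate 1 or WT IS replicate 2 (adjusted p = 0.0034, 0.0050, 0.0053 and 0.0031). At an unadjusted p below 0.05 with a fold change above 2 there was 1 in the IS, *Wt1*, and 0 in the caput. At an adjusted p below 0.05, 3 of 5 changed in the IS, where 29.6% of genes did, and 1 of 5 in the caput, where 27.7% did.

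*Sox9* rose in both segments of ArKI mice. In the IS it was at 122, 137, 137, 126 and 142 CPM in WT and 177, 142, 188, 163 and 161 CPM in ArKI samples, where the lowest ArKI sample lay just below the highest WT sample and the other ArKI samples above all WT samples. The rise was 0.32 ± 0.066 (log2, SE, adjusted p = 0.0013). In the caput it was at 51.6, 60.2, 51.6, 56.6 and 55.3 CPM in WT and 102, 87.9, 83.5, 90.1 and 96.1 CPM in ArKI, with no overlap, as for 20.3% of the genes tested there. The rise of 0.74 ± 0.062 (log2, SE, adjusted p = 1.5e-07), a fold of 1.67, was 0.72 without WT caput replicates 3 and 4, whose other values are given next.

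*Inhbb* fell in the IS and had a lower mean in the caput. In the IS it was at 216, 224, 248, 239 and 245 CPM in WT and 177, 132, 170, 162 and 170 CPM in ArKI, with no overlap, as for 20.0% of the genes tested there, and it fell by 0.53 ± 0.068 (log2, SE, adjusted p = 1.8e-05). In the caput it was at 18.4, 22.5, 30.9, 34.2 and 16.2 CPM in WT and 17.2, 15.2, 22.9, 18.0 and 12.9 CPM in ArKI, a log2 fold change of -0.49 ± 0.24 (SE, adjusted p = 0.17). It passed an adjusted p of 0.05 in DESeq2 (0.049), in the fit of 26 samples (0.045) and with the replicate block (0.0060). The highest values were those of WT replicates 3 and 4. The same libraries held the most *Lcn8*, an IS lipocalin at 13100 to 14337 CPM in the WT IS, with 1077 and 1147 CPM against 42.7 to 199 CPM in the other WT caput and 28.3 to 375 CPM in the ArKI caput samples. *Lcn9* and *Rnase10*, also IS genes, were highest in the same 2 libraries. Without them the *Inhbb* value was -0.13 ± 0.17 (adjusted p = 0.65), a smaller difference by construction, since they hold the highest WT values. The part of IS tissue in them was not tested.

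*Clu* and *Inha*, both far more abundant in the caput than in the IS, varied widely between IS libraries. *Clu* in the IS was at 1521, 830, 872, 1122 and 884 CPM in WT and 1215, 2497, 794, 1260 and 1630 CPM in ArKI, a log2 fold change of 0.50 ± 0.32 (SE, adjusted p = 0.29). *Inha* in the IS was at 9.46, 6.97, 5.62, 6.26 and 8.76 CPM in WT and 8.89, 10.6, 3.61, 8.88 and 11.4 CPM in ArKI, a log2 fold change of 0.23 (adjusted p = 0.54). Single libraries decided much of both values. Without ArKI IS replicate 2 *Clu* was at 0.23 (adjusted p = 0.58), and *Inha* was at 0.42 without ArKI IS replicate 3 (adjusted p = 0.053) and at 0.10 without ArKI IS replicate 5 (adjusted p = 0.81). On leaving out single replicates *Clu* reached at most 0.67, and its adjusted p was never below 0.13. The caput lipocalin *Lcn5*, at 10135 to 17382 CPM in caput samples, was at 114, 64.9, 64.0, 92.6 and 83.5 CPM in the WT IS and 49.4, 89.9, 40.4, 56.7 and 70.5 CPM in the ArKI IS. Within each genotype the library with the highest *Clu* was the one with the highest *Lcn5*, and ArKI IS replicate 3 was lowest in *Clu*, *Inha* and *Lcn5*. *Rnase9*, another caput gene, was highest in WT IS replicate 4 and ArKI IS replicate 2, at 19.6 and 25.0 CPM. The part of neighbouring tissue in these values was not tested. In the caput itself *Clu* (0.09, adjusted p = 0.33) and *Inha* (0.11, adjusted p = 0.13) did not pass.

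**Figure D4:**
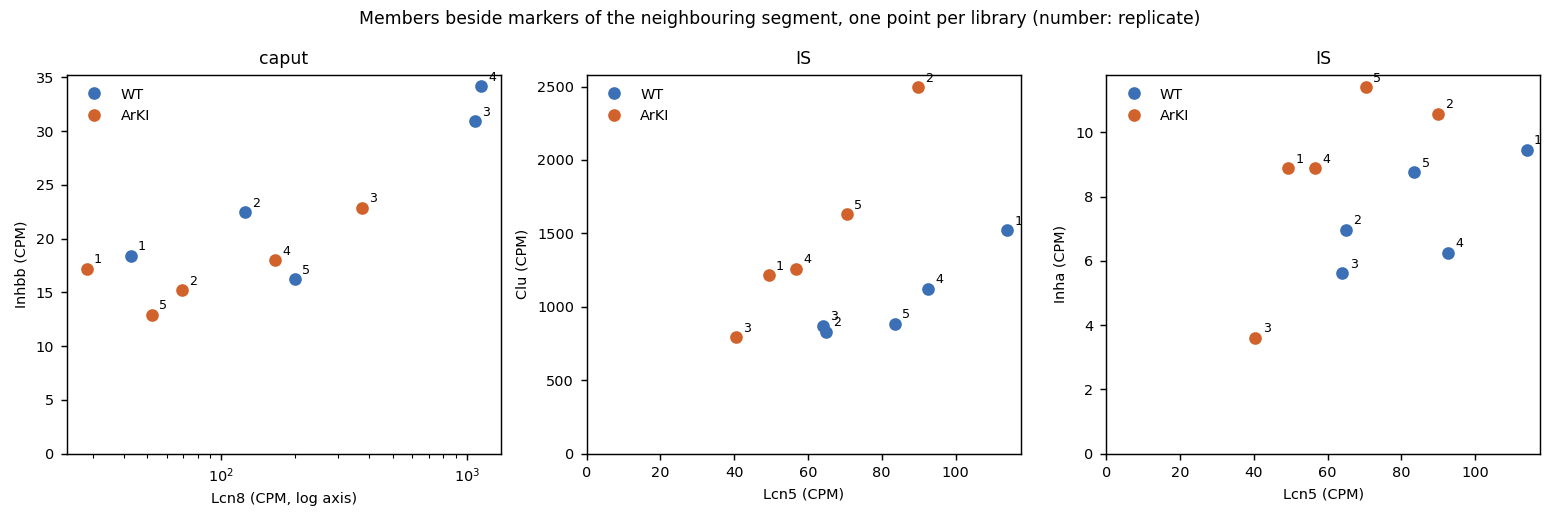
CPM of *Inhbb* in the caput against *Lcn8* (left, log x axis), and of *Clu* (middle) and *Inha* (right) in the IS against *Lcn5*, a point per library with its replicate number, WT in blue and ArKI in orange (n = 5 each). WT caput replicates 3 and 4 are highest in both *Lcn8* and *Inhbb*, and ArKI IS replicate 2 is highest in *Clu*.

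*Wt1* was a rare transcript in the epididymis. It had 4, 14, 7, 4 and 4 counts in the WT IS and 7, 21, 11, 14 and 18 in the ArKI IS, with overlapping ranges, and rose by 1.31 ± 0.38 (log2, SE, adjusted p = 0.013), a fold of 2.47. In the caput it had 23, 8, 11, 10 and 18 counts in WT and 19, 13, 27, 28 and 31 in ArKI, with a log2 fold change of 0.65 (adjusted p = 0.069), which passed in limma-voom (0.044) and without WT caput replicate 1 (0.024). *Dhh* and *Amh* were under the filter in both segments. *Dhh* had 5, 4, 7, 2 and 7 counts in the WT IS, 2, 1, 3, 3 and 2 in the ArKI IS, 0, 2, 2, 1 and 1 in the WT caput and 2, 1, 8, 4 and 6 in the ArKI caput. On log2(CPM + 0.5) the ArKI mean of *Dhh* was 0.41 lower in the IS and 0.49 higher in the caput, and neither difference passed after adjustment over the 4 tests of *Dhh* and *Amh* (exact permutation test, two-sided, p = 0.056 and 0.016, adjusted p = 0.11 and 0.063). The sizes depend on the pseudocount, from -0.73 with 0.1 to -0.27 with 1 in the IS and from 1.11 to 0.29 in the caput. The ArKI mean of *Amh* differed less in the IS and caput (exact permutation test, p = 0.75 and 0.32). *Fshr*, *Gata1* and *Gata4* had at most 1 count in any ArKI epididymal sample.

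Other cells of the IS moved with the genotype as well. All 5 peritubular myoid markers and all 4 endothelial markers fell there, and their summed levels were 546 to 633 CPM and 96.3 to 116 CPM in WT and 239 to 423 CPM and 66.0 to 79.2 CPM in ArKI, with none of the markers at 0. Their part in the values of *Sox9*, *Inhbb* and *Wt1* was not tested. In the caput no myoid marker passed and 2 endothelial markers rose, with summed myoid levels of 758 to 953 CPM in WT and 624 to 1425 CPM in ArKI. Of 7 germ cell markers tested in the caput 1, *Zbtb16*, rose and 5 fell, with a median log2 fold change of -1.56 and sums of 609 to 713 CPM in WT and 415 to 585 CPM in ArKI. These caput counts stand beside 27.7% of all genes called in the caput. In the IS 2 of 8 epididymal epithelium markers rose and 4 fell, and 2 of 6 macrophage markers fell, beside 29.6% of all genes called there.

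The partners of the 10 genes were read in the epididymis by the same lists, with 5 samples a group where the testis had 3. The counts stand beside 29.6% of all genes tested in the IS and 27.7% in the caput at an adjusted p below 0.05, and several are near or under those shares. Of 14 TGF-beta family partners 3 fell and none rose in the IS, and 1 rose and 2 fell in the caput. Of 14 hedgehog pathway genes 3 rose and 4 fell in either segment. Of 8 and 9 tested gonadal transcription factors 1 rose in each, and 3 and 2 fell. Of 10 FSH signalling genes none rose and 2 fell in the IS, and 1 rose and 1 fell in the caput. Of 24 and 26 tested other Sertoli cell genes 4 and 5 rose and 6 fell in either segment. Among the TGF-beta, hedgehog and gonadal factor lists, the genes past the study's thresholds in edgeR were *Inhba*, the other beta subunit gene of inhibin and activin, which fell by 1.24 ± 0.28 in the IS, the hedgehog-interacting protein gene *Hhip* and the factor *Gata2*, which fell there by 1.35 ± 0.22 and 1.05 ± 0.15, and *Gli3*, a mediator of hedgehog signals, which rose by 1.18 ± 0.13 in the caput (log2, SE). Among the other Sertoli cell genes 1 rose and 3 fell past those thresholds in the IS, and 1 rose and 4 fell in the caput, among them the homeobox gene *Rhox5* with a log2 fold change of -8.82. DESeq2 and limma-voom each called 2 hedgehog genes in the IS where edgeR called 1, and the ligand gene *Ihh* was at 1.09 there in edgeR (adjusted p = 0.013). *Gata2* was under 2-fold in limma-voom and without WT IS replicate 3 or 4 (-0.99 in both), and *Inhba* missed the FDR limit without WT IS replicate 5 (adjusted p = 0.0102). These genes were chosen for mention after their values were seen.

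Whether the genotype effect differed between tissues was tested by the interaction in all 26 samples, for the 5 members that passed the filter in the epididymis. By the methods, IS and caput were taken from the same mice, 5 of each genotype, but the labels do not say which libraries share a mouse. The fit treated the 20 epididymal libraries as separate samples, so its p-values do not account for the shared mice. Between testis and caput 1 of 5 passed an adjusted p of 0.05 (14.0% of 16879 genes did), between testis and IS 1 of 5 (11.8%) and between caput and IS 1 of 5 (13.2%). The effect on *Sox9* was lower in the testis than in the caput by 0.81 ± 0.13 (log2, SE, adjusted p = 6.7e-05) and higher in the caput than in the IS by 0.43 ± 0.11 (adjusted p = 0.0045), while the difference between testis and IS of -0.37 ± 0.13 did not pass (adjusted p = 0.062), though it did in 7 of 34 alternatives, DESeq2 (0.036), RLE (0.042) and upper quartile factors (0.047) among them, and without ArKI IS replicate 2 (0.020), WT IS replicate 5 (0.045) or WT testis replicate 3 (0.012). For *Wt1* the testis effect minus the IS effect was -1.25 ± 0.35 (adjusted p = 0.018), on few IS counts. *Gata1*, *Gata4*, *Fshr*, *Dhh* and *Amh* entered this fit only through their testis counts and were left out of these counts. For *Inhbb* no difference between tissues passed. The interval of its testis effect minus its IS effect ran from -0.14 to 0.76, so neither a like nor a smaller effect in the testis was shown. The log2 ratio of *Inha* to *Inhbb* had a higher mean in ArKI samples of both segments, -4.32 against -5.01 in the IS and 2.02 against 1.43 in the caput, and neither difference passed (exact permutation test, two-sided, p = 0.10 and 0.079, adjusted p = 0.21 and 0.21, smallest possible p = 0.0079).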

How the data were processed

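RNA-seq of testis (3 WT and 3 ArKI mice), IS and caput (both from 5 WT and 5 ArKI mice) was analysed. The authors isolated RNA with Trisure, aligned reads to mm10 with STAR, counted uniquely mapped reads per gene with Subread 1.5.1 and deposited raw counts, neither normalized nor filtered. The labels and the paper name different TruSeq kits, and the strand setting of the counting is not given in the sources used here.

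From the counts, the genotypes were compared in each tissue by itself, the WT tissues in a single fit and the interactions in all 26 samples, with edgeR 4.0.16 in R 4.3.3 (filterByExpr with a minimum count of 10 and total of 15, TMM, robust quasi-likelihood test), with Benjamini-Hochberg adjustment over all genes tested. Adjusted p-values without a named tool are from this test. The SE comes from the F statistic. DESeq2 1.42.0 and limma-voom 3.58.1 were alternatives, beside other scalings, filters, a replicate block and leaving out replicates. The study's ROTS test was not run here. Group folds against at most 3 counts per library used a floor of 3 counts. Intervals of the fits cover the spread between samples, and floors cover counting error only. Exon lengths came from GENCODE transcripts.

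The 10 genes and the lists were chosen with earlier results of these data known. From each list the testis genes with an adjusted p below 0.05 (at most 4) and the most abundant gene were named. The scripts were tested on simulated data. No 2 libraries agreed within sampling noise. Figures were drawn with matplotlib 3.10.9. The gene targeted by the knock-in is not reported here.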

Additional observations from a re-analysis of the deposited data

Results flagged for a closer look

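The effect of the genotype differed between tissues by the interaction test for *Sox9* and *Wt1*. For *Sox9* the caput effect minus the IS effect was 0.43 and the testis effect minus the caput effect was -0.81 on the log2 scale, and both passed an adjusted p of 0.05 in each of 34 alternatives, none of which had the mouse as a term. For *Wt1* the testis effect minus the IS effect was -1.25, with 4 to 21 counts per IS sample, and it was no longer past the threshold without ArKI IS replicate 2 (adjusted p = 0.054) or without WT IS replicate 5 (adjusted p = 0.052). *Dhh* was past the same threshold only in a fit it entered through its testis counts, and its values are not taken as a result. Its caput effect minus the IS effect was 2.56 and the testis effect minus the caput effect was -1.62, with 0 to 8 counts per epididymal sample. The latter was lost on leaving out any of 9 replicates singly, with an adjusted p of up to 0.16. In groups of 5, no sample of the tested genes stood apart from the rest of its group by Dixon's test, in 20 groups of which chance would give about 1.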

How the results depend on the processing

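Of the main values and counts recomputed under the alternatives, 480 kept their direction and side of the threshold or moved little, and 37 moved; for single genes the numbers were 1764 unchanged in this sense, 44 no longer past the threshold, 15 newly past it and 44 of the other sign. Where no cause is named it was not tested. With at least 10 counts in every sample, fewer genes and members could be tested, and the calls at the study's thresholds were 75 in the testis, 350 in the IS and 311 in the caput, those between WT testis and IS or caput 6868 and 6861, with 3 and 1 members, and those of the testis minus caput effect 1489, with 1 member there and 1 in the caput minus IS effect. With all 26 samples in a single fit 817 genes passed in the IS and 1092 in the caput, with 1 member at the study's thresholds in the IS (*Wt1*) and 4 at an adjusted p below 0.05 in the caput. Those of the 4 that passed the caput filter were *Sox9*, *Inhbb* (0.045) and *Wt1* (0.048). The remaining member entered this fit only through its testis counts and is not taken as a result. DESeq2 and limma-voom each called 2 members in the caput at an adjusted p below 0.05. Counts of members between tissues here include those that entered a fit only through the testis. DESeq2 called 1 member for testis minus caput, and DESeq2, RLE and upper quartile factors 2 for testis minus IS (*Sox9* newly).

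Effects close to 0 changed sign. *Clu* in the testis was -0.00024 in DESeq2, -0.0016 in limma-voom and -0.00022 with RLE factors, *Dhh* was 0.00077 in the fit of 26 samples, and *Prkar1a* was 0.024 in that fit, 0.00056 with every gene of at least 1 count, 0.016 by library size and 0.019 with upper quartile factors. *Clu* between testis and IS was -0.12 by library size, -0.19 with upper quartile factors and -0.26 in ArKI samples. Leaving out single replicates, the testis values ran from -0.15 to 0.23 for *Amh*, -0.20 to 0.064 for *Sox9*, -0.032 to 0.093 for *Wt1*, -0.016 to 0.029 for *Gata1*, -0.22 to 0.12 for *Fshr*, -0.11 to 0.035 for *Dhh*, -0.14 to 0.015 for *Inha*, -0.059 to 0.038 for *Clu*, -0.025 to 0.085 for *Amhr2*, -0.028 to 0.033 for *Prkar1a* and -0.19 to 0.037 for *Cdh5*. The testis calls over all lists, 12, ran from 7 (without WT testis replicate 3) to 13. Members called ran from 0 to 1 at the study's thresholds in the IS (*Wt1*, without ArKI IS replicate 1 or WT IS replicate 2), and 1 to 2 members passed an adjusted p of 0.05 in the caput, as for the testis minus IS and testis minus caput effects. The caput minus IS effect ran from -0.58 to 0.12 for *Amh*, -0.30 to 0.025 for *Inha* and -0.071 to 0.19 for *Inhbb*, and the testis minus IS effect of *Amh* from -0.0048 to 0.69.

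Same-numbered ArKI and WT samples correlated at -0.0048 to 0.056 in the testis, -0.095 to 0.20 in the IS and -0.19 to 0.20 in the caput. Of these numbers, 1 of 3, 2 of 5 and 1 of 5 correlated best with their own. Between IS and caput same-numbered samples correlated at -0.012 to 0.19 in WT and -0.15 to 0.21 in ArKI, with 3 of 5 and 2 of 5 best with their own. Whether the same number marks the same mouse or litter is not given in the sources used here, and these correlations cannot decide it. How many numbers would match best by chance was not computed. With the replicate number as a block, 136, 557 and 656 genes passed in testis, IS and caput, with 1 member in the IS (*Wt1*), 2 members at an adjusted p below 0.05 in the caput (*Inhbb* newly, at 0.0060), 1 for testis minus caput (*Dhh* lost, at 0.051) and *Clu* in the testis at -0.00047; it changed no other call of the 10 genes. Leaving out WT caput replicates 3 and 4 together, and the ratios in IS and caput, were chosen after seeing the data. Depth limited *Fshr* and *Amh* in the testis and *Wt1*, *Dhh* and *Amh* in the epididymis.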
